A study of Mus musculus with 11 samples.

Results

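The sirtuins are the 7 genes Sirt1 to Sirt7, and their transcripts were followed in hippocampal RNA of mice aged 6 months. The family was chosen by its measured cKO-over-WT differences, and its members were taken from the deposited count table by gene symbol, which found 7 rows among 30681 genes. The mice carried a conditional knockout (cKO) of Dclk3, a gene for a doublecortin-like kinase, or were wild type (WT), with 6 libraries labelled cKO (cKO-labelled below) and 5 WT libraries. Each library was made from polyadenylated RNA of 1 hippocampus. The strain, the recombinase that drives the deletion, the deleted exons and any treatment are not stated in the labels. Labels do not say whether libraries came from separate animals, so the errors below measure the spread between these libraries only.

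Sirtuins remove acetyl and longer acyl groups from lysines and consume NAD+ in doing so, releasing nicotinamide. Their activity is therefore tied to the supply of NAD+ and to the other enzymes that use it. Sirt1, Sirt6 and Sirt7 are mainly nuclear, Sirt2 is mainly cytoplasmic, and Sirt3, Sirt4 and Sirt5 are mitochondrial. In brain, Sirt2 is known as an abundant protein of oligodendrocytes and myelin, and Sirt1 as a deacetylase of neuronal transcription regulators.

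The low value of Sirt4 in cKO-labelled libraries was among the differences known at that choice. Those differences are given as a description and support nothing. Levels, the relation of members to each other within genotype, the sexes and the promoter sequences were not part of that choice.

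Total counts ran from 24001828 to 35674490 per library, and all 7 sirtuins passed the filter on low counts. The hippocampal markers Prox1, Wfs1, Calb1, Bok and Nptx1 were at 60.05 CPM (counts scaled to a common library total) or more in every library. Dclk3 itself had 20.1 ± 3.44 CPM in cKO-labelled libraries, against 22.4 ± 3.31 CPM in WT libraries (n = 6 and 5, SD), and the log2 ratio was -0.15 ± 0.12 (SE). Thus the targeted transcript was not lower beyond the spread, and the group is called by its label throughout. By Xist and 4 Y-linked genes, WT replicates 1, 3 and 4 were female and the other 8 libraries male, so all libraries labelled cKO were male. Fewer cells of a type and less RNA per cell cannot be told apart in such bulk tissue.

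Promoters of all 7 sirtuins were found in RefSeq (GRCm38.p6), each as 250 bases before to 50 after an annotated start, in 9 windows since Sirt3 and Sirt6 have 2 starts. Sirt4 and Sirt2 are shown because they were the sirtuins whose window held the core of the ZNF143 site on either strand. ZNF143 is a zinc-finger factor that binds promoters of many housekeeping genes. Capitals mark the core, which occurs 2 times in Sirt4 (once in each orientation) and 1 time in Sirt2 (reverse).

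Sirt4 promoter, chr5:115484248-115484547, minus strand: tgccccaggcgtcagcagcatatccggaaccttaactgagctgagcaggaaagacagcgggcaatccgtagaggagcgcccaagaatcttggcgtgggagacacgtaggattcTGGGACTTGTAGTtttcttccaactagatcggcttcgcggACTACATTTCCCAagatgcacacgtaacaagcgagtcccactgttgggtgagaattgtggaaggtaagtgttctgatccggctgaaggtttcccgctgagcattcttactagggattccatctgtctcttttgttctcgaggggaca

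Sirt2 promoter, chr7:28766502-28766801, plus strand: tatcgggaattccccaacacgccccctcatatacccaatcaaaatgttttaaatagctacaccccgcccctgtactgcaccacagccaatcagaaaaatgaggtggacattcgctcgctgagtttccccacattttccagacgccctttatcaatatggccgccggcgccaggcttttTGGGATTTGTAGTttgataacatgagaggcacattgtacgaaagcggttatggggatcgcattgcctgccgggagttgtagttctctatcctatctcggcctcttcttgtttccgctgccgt

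This core was in 1.47% of the 32851 promoters of that length, and 0.125% held it at least 2 times. The matches began 137 and 97 bases before the Sirt4 start and 72 before that of Sirt2, and none of them overlapped another element searched. Of 7 other elements searched on both strands, the GC box GGGCGG was present in 6 of the 7 sirtuin genes (in 35.7% of all promoters), and Sirt4 was the one without it. A sirtuin gene counts here if any of its windows holds the element, whereas the shares are per window. Sirt3 and Sirt6 each held the GC box in only 1 of their 2 windows. The ETS core CCGGAAG was found for Sirt3, Sirt6 and Sirt7 (in 8.86% of all promoters), the E-box CACGTG for Sirt1 (7.15%) and the NRF1 palindrome for Sirt6 (0.971%). CCAAT was in the windows of Sirt2, Sirt3 and Sirt5 (37.4%), and neither the cAMP response element TGACGTCA (1.79%) nor the TATA box TATAAA (13.6%) was in any. Base composition differed widely, from 79% G and C in Sirt1 to 50% in Sirt2, against a median of 52.7% over all promoters. These letter matches describe the windows and do not show that a factor binds there. The ZNF143 core was chosen after the sequences had been read.

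Transcript levels, compared per kb of annotated exon, spanned 16.9-fold within the family. Sirt2, the cytoplasmic deacetylase whose substrates include tubulin, was highest at 28.2 ± 2.03 CPM per kb (SD, n = 11). Sirt3, the main deacetylase of the mitochondrial matrix, followed at 15.3 ± 0.489 CPM per kb, and the Sirt2 and Sirt3 ranges did not overlap. Sirt2 alone made up 42.2% to 49.4% of the summed length-scaled level of the family in a library.

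The other 5 members were lower still. Sirt7, a nucleolar enzyme tied to ribosomal RNA synthesis, had 5.53 ± 0.608 CPM per kb, and Sirt6, a chromatin deacylase of genome maintenance, had 4.98 ± 0.516 CPM per kb (SD, n = 11). Sirt7 was above Sirt6 in 9 of 11 libraries and their ranges overlapped, so this pair is not ordered beyond the spread. Sirt4, the mitochondrial lipoamidase and ADP-ribosyltransferase, had 3.70 ± 0.648 CPM per kb. Sirt1 had 2.42 ± 0.328 CPM per kb, and the demalonylase and desuccinylase Sirt5 was lowest at 1.66 ± 0.103 CPM per kb. The steps from Sirt6 to Sirt4, Sirt4 to Sirt1 and Sirt1 to Sirt5 each had the same direction in 11 of 11 libraries, although the ranges overlapped across libraries for the first and second of them. The length used was the union of all annotated exons, so a gene with long rarely used exons would read low.

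**Figure D1:**
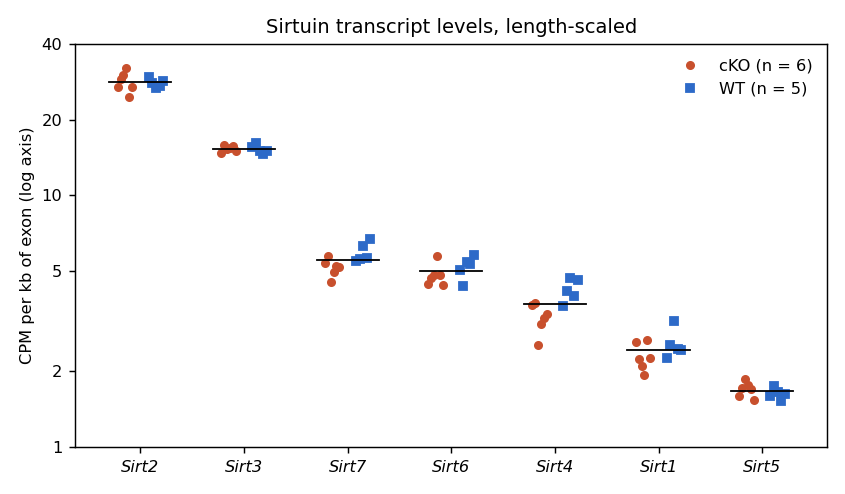
Length-scaled level of each sirtuin (CPM per kb of exon, log axis) in the 6 libraries labelled cKO (circles) and the 5 WT libraries (squares), with the mean of all 11 as a line. Sirt2 and Sirt3 stand clear of the other 5 genes, and Sirt5 is lowest.

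Steadiness over libraries differed as well. Sirt3 varied least, with a coefficient of variation within genotype of 3.37%, against a median of 8.78% over all genes tested. Sirt5 (5.91%) and Sirt2 (6.75%) were also below that median, Sirt7 stood near it at 8.63%, and Sirt6 (10.1%), Sirt4 (11.9%) and Sirt1 (13%) were above it. Sirt4 rested on 187 to 385 reads per library, fewer on average than any other member, and Sirt2 on 2944 to 5562. The median gene tested had 17.9 CPM, against 91.5 CPM for Sirt3 and 142 CPM for Sirt2. Variation was thus not compared at like levels, and the part of read number in it was not tested.

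Between the genotypes, 4 sirtuins had lower and 3 had higher values in the libraries labelled cKO, with a median log2 fold change of -0.11 over the 7, against -7.86e-05 over the 16587 genes tested. None of the 7 passed edgeR's test over all genes, which called 0 genes in all (0.0%), and none of the 7 was among the 58 genes that DESeq2 called (0.375%). At an unadjusted p under 0.05 edgeR gave 2 sirtuins as lower (Sirt4 and Sirt7) and none as higher, where 5.35% of all genes tested were lower and 3.84% higher at that level. No sirtuin had every library labelled cKO below every WT library, which 0.512% of genes did, or above, which 0.404% did. Since the family was proposed with these values known, nothing is read from the counts.

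Among the mitochondrial members, Sirt4 had the lowest fold change of the family. Its values in replicates 1 to 6 labelled cKO were 8.78, 8.91, 6.11, 7.36, 7.84 and 8.11 CPM, against 8.70, 10.0, 11.3, 9.53 and 11.1 CPM in WT replicates 1 to 5. The groups overlapped through replicates 1 and 2 labelled cKO, which lay just above WT replicate 1. The other 4 libraries labelled cKO were below every WT library. Sirt4 averaged 7.85 ± 1.03 CPM in cKO-labelled libraries, against 10.1 ± 1.09 CPM in WT libraries (n = 6 and 5, SD), with a log2 ratio of -0.37 ± 0.10 (SE; 95% interval -0.58 to -0.15), which is 22.5% lower. Replicate 3 labelled cKO was the lowest library, and without it the log2 fold change was -0.30.

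Sirt3, in contrast, was level between the groups. It had 88.02, 94.95, 91.7, 92.1, 94.3 and 89.4 CPM in replicates 1 to 6 labelled cKO, and 92.9, 96.1, 89.4, 87.2 and 89.9 CPM in WT replicates 1 to 5. Its log2 fold change was 0.01 ± 0.04 (SE; 95% interval -0.08 to 0.10), the narrowest interval in the family. Sirt5 had 9.32 to 11.3 CPM in cKO-labelled libraries, against 9.29 to 10.6 CPM in WT libraries, with a log2 fold change of 0.06 ± 0.07 (SE). Of the 3 mitochondrial sirtuins, Sirt3 and Sirt5 thus had no direction beyond their error (95% interval -0.09 to 0.21 for Sirt5). Whether the 3 share a direction cannot be read from these values.

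Of the nuclear members, Sirt7 had 27.8, 29.7, 23.3, 25.4, 27.0 and 26.7 CPM in replicates 1 to 6 labelled cKO, and 28.3, 28.6, 32.5, 29.1 and 34.6 CPM in WT replicates 1 to 5. Replicate 2 labelled cKO was the only one of its group inside the WT range. The log2 fold change was -0.20 ± 0.07 (SE; 95% interval -0.35 to -0.06), which is 13% lower. An exon of Sirt7 shares 124 bases with the end of Mafg on the same strand, and reads there could be given to either gene. Mafg had 85.3 ± 6.03 CPM in cKO-labelled libraries, against 90.7 ± 7.40 CPM in WT libraries (n = 6 and 5, SD).

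Sirt1 averaged 12.3 ± 1.51 CPM in cKO-labelled libraries, against 13.7 ± 1.86 CPM in WT libraries (n = 6 and 5, SD). Its log2 fold change of -0.16 ± 0.10 (SE; 95% interval -0.36 to 0.05) leaned on WT replicate 3, the highest library at 16.8 CPM, and was -0.08 without it. Sirt6 averaged 13.4 ± 1.34 CPM in cKO-labelled libraries, against 14.5 ± 1.47 CPM in WT libraries, with a log2 fold change of -0.11 ± 0.08 (SE). It was -0.07 without WT replicate 5, the highest library of its group at 16.1 CPM, and -0.16 without replicate 4 labelled cKO or without WT replicate 2. For Sirt1, 3 of the 6 cKO-labelled libraries were under the whole WT range, and the groups overlapped along most of their range for Sirt6.

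Cytoplasmic Sirt2 had 136, 146, 152, 162, 123 and 136 CPM in replicates 1 to 6 labelled cKO, and 149, 141, 134.5, 137 and 143 CPM in WT replicates 1 to 5. Means were alike, at 142 ± 13.5 CPM in cKO-labelled libraries, against 141 ± 5.62 CPM in WT libraries, and the highest and the lowest library were both labelled cKO. The log2 fold change was 0.01 ± 0.06 (SE; 95% interval -0.11 to 0.14).

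**Figure D2:**
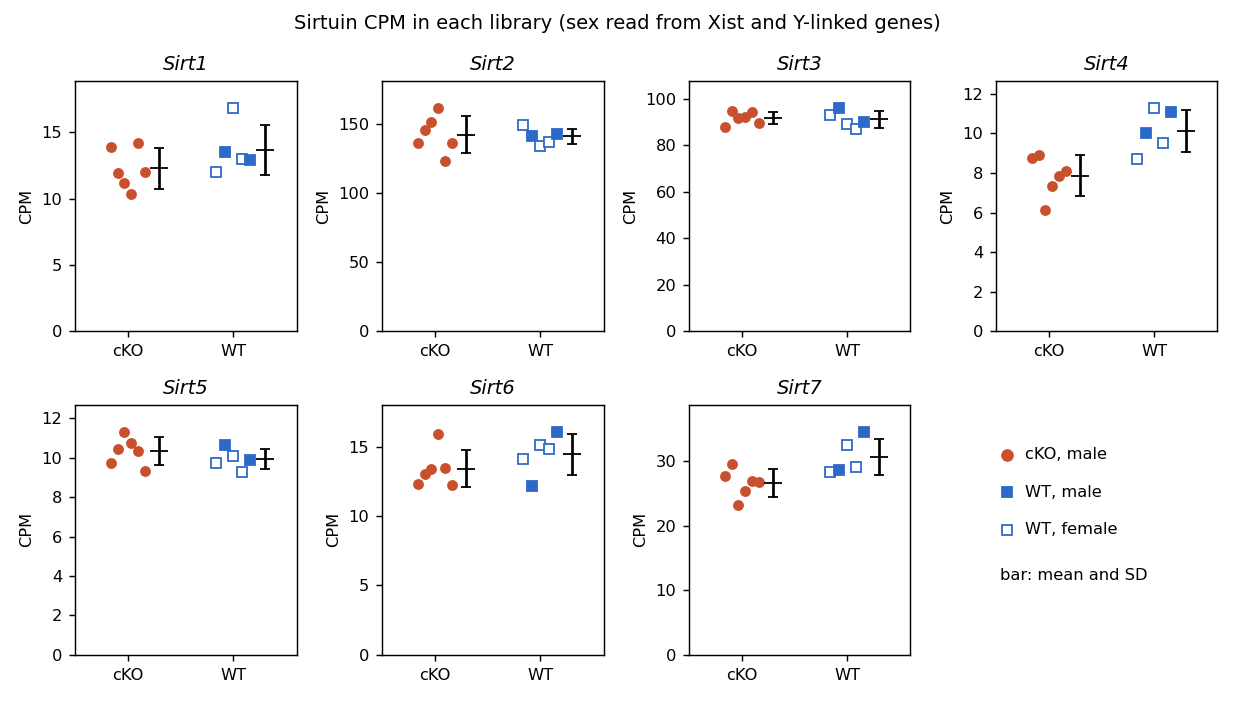
CPM of each sirtuin in each library, with circles for libraries labelled cKO, filled squares for male WT and open squares for female WT, and mean with SD beside each group (n = 6 and 5). For Sirt4 and Sirt7 most libraries labelled cKO lie below the WT libraries, while the groups overlap over much of their range for the other 5 genes.

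Sex could be compared without using the genotype contrast, because both sexes occurred among the WT libraries. In the fit with genotype and sex, 0 of 7 sirtuins passed edgeR's test, which called 5 genes in all (0.0301%), each of them Y-linked. Among those 5, Kdm5d, Ddx3y, Uty and Eif2s3y were the genes from which sex had been read, so their calling followed from that. DESeq2 called 0 of the 7, and none had an unadjusted p under 0.05 in edgeR, where 3.38% of all genes did. Sirt4 had 9.84 ± 1.33 CPM in female WT libraries and 10.5 ± 0.770 CPM in male WT libraries (SD, n = 3 and 2), a log2 difference of -0.10 ± 0.15 (SE; 95% interval -0.42 to 0.22; edgeR, adjusted p = 0.981). Sirt7 had 30.0 ± 2.23 CPM in female WT libraries and 31.6 ± 4.24 CPM in male WT libraries, a log2 difference of -0.08 ± 0.10 (SE; edgeR, adjusted p = 0.981). With 2 male WT libraries these intervals are wide.

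The genotype values of Sirt4 and Sirt7 were of like size when sex was held fixed. Against the male WT libraries alone, the log2 fold change was -0.42 ± 0.14 for Sirt4 and -0.25 ± 0.10 for Sirt7 (SE, n = 6 and 2). With a sex term over all 11 libraries it was -0.43 ± 0.14 for Sirt4 and -0.25 ± 0.09 for Sirt7 (SE). Since all cKO-labelled libraries were male, that genotype value also comes from the 6 and 2 male libraries. The female WT libraries add only to the estimate of spread, so the 2 fits are not separate estimates. In the male libraries Sirt1 was at -0.11 ± 0.12, Sirt6 at -0.07 ± 0.12, Sirt5 at 0.01 ± 0.11 and Sirt3 at -0.02 ± 0.06 (SE), so Sirt3 changed sign and Sirt5 was nearer 0 than over all libraries.

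**Figure D3:**
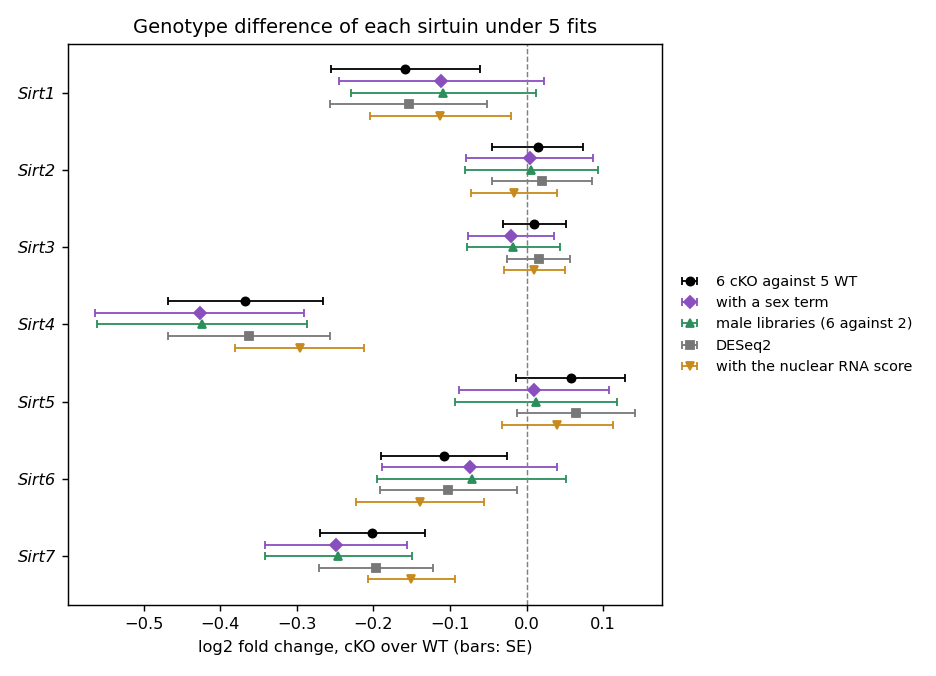
Log2 fold change (labelled cKO over WT) of each sirtuin with its SE, from the fit of 6 against 5 libraries, with a sex term, in the male libraries only, by DESeq2 and with a score of nuclear-retained RNAs as a term. Sirt4 lies between -0.43 and -0.30 and Sirt7 between -0.25 and -0.15 in these 5 fits, and Sirt2, Sirt3 and Sirt5 lie near 0. The fit with a sex term and the male fit draw the genotype value from the same male libraries.

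Sirt4 and Sirt7 varied together from library to library. Over the 11 libraries their log2 CPM values (prior count 2) had Pearson r = 0.95 (permutation p = 2e-05, Benjamini-Hochberg adjusted over the 21 pairs of sirtuins 0.00042) and Spearman rho = 0.94 (permutation p = 0.00018, adjusted 0.0038). The uncentred values, for this pair and the next, hold the genotype difference by which the family was chosen. Their p values are therefore not free of that choice. With each genotype centred on its own mean, which removes the genotype difference, r was 0.91 (permutation p = 0.00027, adjusted 0.0057) and rho 0.89. It was 0.97 in the 6 libraries labelled cKO (exact permutation p = 0.0028), and 0.90 without the 2 libraries farthest from the median of Sirt4. The 5 WT libraries are too few for a value of their own.

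The 2 genes lie on different chromosomes, 5 and 11, and one product is mitochondrial and the other nucleolar. Of the 16586 other genes tested, 0.109% were as like Sirt4 as Sirt7 was, by the centred r, and 0.0422% as like Sirt7 as Sirt4. The likeness was therefore close but shared with other genes. Those most like Sirt4 were Chd7, a chromatin remodeller (0.95), Gabpb2 (0.95) and Exd2 (0.95). Those most like Sirt7 were Hdac10, a deacetylase of the class IIb group (0.95), Trim68 (0.93) and Hps4 (0.93).

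Sirt1 and Sirt2 went in opposite directions across libraries. Their r was -0.77 over the 11 libraries (permutation p = 0.0073, adjusted over the 21 pairs 0.077) and rho was -0.88 (permutation p = 0.00072, adjusted 0.0076). Centred within genotype, r was -0.83 (permutation p = 0.001, adjusted 0.011) and rho -0.90. In the 6 libraries labelled cKO r was -0.93 (exact permutation p = 0.011), and without the 2 libraries farthest from the median of Sirt1 it was -0.78. An r at or below this centred value was found for 0.283% of genes against Sirt1. No other pair of sirtuins passed the adjustment by r or by rho, with or without centring.

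**Figure D4:**
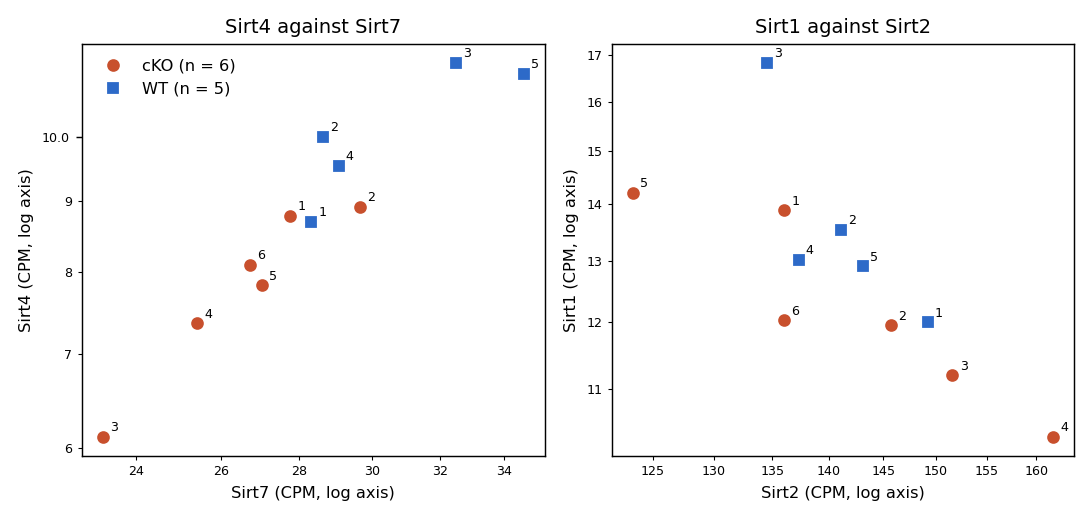
CPM of Sirt4 against Sirt7 (left) and of Sirt1 against Sirt2 (right) in each library on log axes, with circles for libraries labelled cKO, squares for WT, and the replicate number beside each point. The first pair climbs together (r = 0.95, and 0.91 centred within genotype). The second runs in opposite directions (r = -0.77, and -0.83 centred within genotype).

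The other members had their own nearest genes by centred r over the 11 libraries, as a description among 16586 genes. Those of Sirt1 were Tapt1 (0.95), Ptchd4 (0.92) and Hace1 (0.92). Those of Sirt2 were Zfp574, Fbxl22 and Tmem232 (0.90 to 0.91), those of Sirt3 Fam69a, Gm6556 and Wdr44 (0.87 to 0.94), those of Sirt5 Gmpr2, Ppt1 and Usp6nl (0.91 to 0.93) and those of Sirt6 Abhd16a, Sra1 and Sharpin (0.90 to 0.92). None of the 3 genes nearest Sirt2 was in the oligodendrocyte list of 10, but so few genes among 16586 allow no reading of that. Fbxl22, Tmem232 and Gm6556 averaged only 0.295, 0.694 and 1.11 CPM.

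Transcripts retained in the nucleus were set beside the sirtuins across libraries. The score of 5 such noncoding RNAs (Malat1, Neat1, Miat, Meg3 and Kcnq1ot1, chosen after the values were seen) is the mean of their centred log2 CPM. It was 0.441, 0.117, -0.488, -0.508, -0.00949 and -0.0464 in replicates 1 to 6 labelled cKO, and 0.0192, 0.176, 0.105, -0.278 and 0.471 in WT replicates 1 to 5. The score was lowest in replicates 3 and 4 labelled cKO, where Sirt1, Sirt4 and Sirt7 were lowest too. Those 2 libraries lay below every WT library and WT replicate 5 above every cKO-labelled one, while the other libraries overlapped. The score had means of -0.08 ± 0.36 in cKO-labelled libraries, against 0.10 ± 0.27 in WT libraries (n = 6 and 5, SD).

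Centred within genotype, the score had r = 0.76 with Sirt4 (permutation p = 0.012, adjusted over 7 sirtuins 0.048; rho = 0.79, p = 0.01 by permutation, adjusted 0.073) and r = 0.74 with Sirt7 (permutation p = 0.014, adjusted 0.048; rho = 0.66, p = 0.032 by permutation, adjusted 0.11). Over the uncentred values r was 0.70 and 0.72 (adjusted permutation p = 0.052 for both). Sirt1 went the same way, with a centred r of 0.51 (permutation p = 0.13, adjusted 0.3). In the 6 cKO-labelled libraries r was 0.80 for Sirt1, 0.85 for Sirt4 and 0.79 for Sirt7. Centred r of Sirt2, Sirt3, Sirt5 and Sirt6 ran from -0.45 to -0.0094. Without the 2 libraries farthest from the median score r fell to 0.36 for Sirt4, 0.44 for Sirt7 and 0.14 for Sirt1. The relation therefore rests on those libraries. The p values do not account for the choice of the score after the values were seen, so no relation is claimed from them. With the score as a term, the genotype log2 fold change was -0.30 ± 0.08 for Sirt4 and -0.15 ± 0.06 for Sirt7 (SE). Without replicates 3 and 4 labelled cKO it was -0.27 ± 0.09 for Sirt4 and -0.14 ± 0.07 for Sirt7 (SE). Mitochondrial transcripts took 5.06% to 6.79% of counts in cKO-labelled libraries, against 4.47% to 6.5% in WT libraries.

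Cell type markers differed in level between the genotypes in some lists, though none beyond the adjusted threshold. The summed level of 7 astrocyte markers was 8359 to 10403 CPM in cKO-labelled libraries, against 6743 to 7953 CPM in WT libraries, with 7 of 7 higher. Slc1a2 made up much of that sum (means 5206 and 4476 CPM), and 0 of the 7 separated the groups alone. By the score, the mean of centred log2 CPM over the list, the groups overlapped. Replicates 1, 3 and 5 labelled cKO (-0.0783, -0.00047 and -0.0088) lay below WT replicate 1 (0.0135). All 7 microglial markers were also higher, at 630 to 965 CPM in sum in cKO-labelled libraries, against 635 to 712 CPM in WT libraries, and 4 of each of these lists had an unadjusted p under 0.05 (3.84% of all genes were higher and 5.35% lower at that level). Among them were Mlc1, Gja1, Slc1a2 and Aqp4 of astrocytes (log2 fold changes 0.16 to 0.26) and P2ry12, Cx3cr1 and Csf1r of microglia (0.16 to 0.19). The 6 meningeal markers summed to 83.7 to 173 CPM in cKO-labelled libraries, against 115 to 171 CPM in WT libraries. Of them 2 were higher, and the other 4, Slc13a4, Igf2, Aldh1a2 and Slc6a13, were lower at that level (-0.93 to -0.56). In the male libraries these 4 were at -0.40 to -0.11, and with a sex term the median of the list was -0.21, against -0.59 without it. Of 8 markers of adjoining thalamus and choroid plexus 3 were higher and 5 lower, with a median log2 fold change of -0.07. Their sum was 131 to 294 CPM in cKO-labelled libraries, against 140 to 214 CPM in WT libraries. Zic1, Ramp3 and Prkcd of this list were lower at that level (-0.59 to -0.33; -0.76 to -0.47 in the male libraries). Zic1 and Ramp3 had every library labelled cKO below every WT library, as 0.512% of all genes did. None of these markers was at 0 in a library or passed edgeR's test over all genes. Sirt4 had r = -0.47 with the astrocyte score (permutation p = 0.14, adjusted over 56 relations 0.58) and rho = -0.65 (permutation p = 0.034, adjusted 0.61), and centred within genotype r was 0.07. Without the 2 libraries farthest from the median score r was -0.78 for Sirt4 and -0.76 for Sirt7 (adjusted permutation p = 0.22 for both). With the microglial score r was -0.44 (permutation p = 0.17, adjusted 0.58) and rho -0.59 (permutation p = 0.06, adjusted 0.61), and centred r was -0.06. Without the 2 farthest libraries it was -0.79 for both Sirt4 and Sirt7 (adjusted permutation p = 0.22), and these values still hold the genotype difference. By r, the largest relation of both genes over the 11 libraries was with the neuron score. It was -0.61 for Sirt4 (permutation p = 0.048, adjusted 0.58) and -0.65 for Sirt7 (permutation p = 0.028, adjusted 0.58). Centred within genotype, r with the neuron score was -0.62 for Sirt4 and -0.65 for Sirt7 (adjusted permutation p = 0.87 and 0.84). Whether the cell type differences between genotypes take part in the genotype values of Sirt4 and Sirt7 was not tested.

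Oligodendrocyte markers, the cell type in which Sirt2 is best known, summed to 4618 to 6384 CPM in cKO-labelled libraries, against 4920 to 5911 CPM in WT libraries. Sirt2 had r = 0.79 with their score over the 11 libraries (permutation p = 0.0087, adjusted over 56 relations 0.49) and rho = 0.32 (permutation p = 0.34, adjusted 0.66). Replicates 4 and 5 labelled cKO held both the extremes of the score and those of Sirt2, and without them r was 0.04. The relation therefore rests on those 2 libraries. None of the 56 relations between the 7 sirtuins and 8 cell type scores passed the adjustment by r or by rho, and the smallest adjusted permutation p was 0.49 over the 11 libraries. Centred within genotype the smallest was 0.84, and without the 2 libraries farthest from each score it was 0.16.

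Genes of NAD+ supply, most of them enzymes of its synthesis, showed no common direction. Of 15 listed 12 were tested, with 5 higher and 7 lower in the libraries labelled cKO and a median log2 fold change of -0.0019, beside 8293 higher and 8294 lower over all genes. At an unadjusted p under 0.05, where 9.19% of all genes stand, there were 2 higher and 0 lower. Haao, an enzyme of quinolinate formation, had 0.538 ± 0.194 CPM in cKO-labelled libraries, against 0.259 ± 0.0559 CPM in WT libraries, a level near the limit of detection. Nadk2, the mitochondrial kinase that turns NAD+ into NADP+, had 73.2 ± 4.37 CPM in cKO-labelled libraries, against 66.9 ± 5.75 CPM in WT libraries (n = 6 and 5, SD). Its log2 fold change was 0.13 ± 0.06 (SE), and it was 0.05 in the male libraries. Nmrk2, Kmo and Kynu were below the filter.

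Other users of NAD+ had a median log2 fold change of 0.07, with 6 of 9 tested higher, 2 of them at an unadjusted p under 0.05, where 3.84% of all genes were higher. Nnmt, kept in this list although it does not use NAD+ itself, methylates the nicotinamide that sirtuins release. It had 2.47 ± 0.656 CPM in cKO-labelled libraries, against 1.66 ± 0.209 CPM in WT libraries (log2 fold change 0.58 ± 0.18, SE). Cd38, an NAD+ glycohydrolase, had 14.4 ± 1.41 CPM in cKO-labelled libraries, against 12.4 ± 0.859 CPM in WT libraries (log2 fold change 0.22 ± 0.08, SE). Neither passed edgeR's test over all genes (adjusted p = 0.416 for Nnmt and 0.435 for Cd38). Astrocyte and microglial markers, given above, were higher in the same libraries, and their part in these values was not tested.

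Partners and substrates of the nuclear sirtuins came next. Of 5 regulators of sirtuins 1 was higher and 4 lower, with a median log2 fold change of -0.05. None had an unadjusted p under 0.05 in edgeR, where 9.19% of all genes stood. The smallest was that of Rps19bp1, which binds and activates Sirt1 (log2 fold change -0.08 ± 0.06, SE). Of 14 nuclear substrates 6 were higher and 8 lower. Crtc2, a CREB coactivator that Sirt1 deacetylates, was the 1 with an unadjusted p under 0.05, where 5.35% of all genes were lower and 3.84% higher. It had 23.98 ± 1.99 CPM in cKO-labelled libraries, against 27.1 ± 1.84 CPM in WT libraries. Of 8 genes of RNA polymerase I and its factors, the process tied to Sirt7, 3 were higher and 5 lower, none at that level, with a median of -0.0044, which was 0.06 in the male libraries.

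Mitochondrial enzymes tied to Sirt3, Sirt4 or Sirt5 numbered 19, all tested, with 12 higher and 7 lower and a median log2 fold change of 0.05, which was 0.02 without replicate 3 labelled cKO or without WT replicate 5. Ide, the insulin-degrading enzyme reported to bind Sirt4, had 50.7 ± 1.30 CPM in cKO-labelled libraries, against 47.2 ± 1.71 CPM in WT libraries (log2 fold change 0.10 ± 0.04, SE), and every library labelled cKO lay above every WT library, as 0.404% of all genes did. Ppif, which encodes cyclophilin D, a Sirt3 substrate, was at -0.12 ± 0.06, and Mlycd, malonyl-CoA decarboxylase, a Sirt4 substrate, at -0.12 ± 0.06 (log2 fold change, SE). Mlycd was at -0.02 in the male libraries. Of 6 genes of tubulin acetylation, the field of Sirt2, 3 were higher and 3 lower, and Hdac6, the other main tubulin deacetylase, had 44.5 ± 2.50 CPM in cKO-labelled libraries, against 48.6 ± 4.14 CPM in WT libraries. None of the genes named here passed edgeR's test over all genes.

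Genomic neighbours gave a last view of Sirt4 and of the crowded loci of its relatives. Sirt4 (ENSMUSG00000029524, chromosome 5, 115478010 to 115484725, minus strand, mm10) has exons free of overlap with any other gene of the annotation. Its nearest coding neighbour among the genes tested, Pxn, which encodes the adhesion protein paxillin, starts 21950 bases away and had 38.9 ± 3.84 CPM in cKO-labelled libraries, against 45.3 ± 4.84 CPM in WT libraries (log2 fold change -0.22 ± 0.08, SE). Sirt3 (ENSMUSG00000025486, chromosome 7, 140863666 to 140882309, minus strand) shares 342 exon bases with Psmd13 and 418 with Ric8a, both on the other strand. Since the strand setting used in counting is not stated, reads in those bases could be set to either gene. Psmd13 had a log2 fold change of 0.02 ± 0.04 and Ric8a one of -0.02 ± 0.04 (SE). Ankrd24, which starts 742 bases beyond Sirt6, had 21.2 ± 2.59 CPM in cKO-labelled libraries, against 25.5 ± 2.94 CPM in WT libraries (log2 fold change -0.26 ± 0.09, SE), a larger difference than that of Sirt6 itself. Neighbours of Sirt1, Sirt2, Sirt5 and Sirt7 that were tested had log2 fold changes from -0.10 to 0.14.

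The other members lie in mm10 as follows. Sirt1 (ENSMUSG00000020063) spans 63319005 to 63381704 on the minus strand of chromosome 10, with 65 exon bases shared with the antisense gene Gm16145. Sirt2 (ENSMUSG00000015149) spans 28766735 to 28788661 on the plus strand of chromosome 7, with 42 exon bases shared with Nfkbib on the other strand. Sirt5 (ENSMUSG00000054021) spans 43365496 to 43395203 on the plus strand of chromosome 13, and Sirt6 (ENSMUSG00000034748) spans 81621785 to 81627797 on the minus strand of chromosome 10, both without exon overlap. Sirt7 (ENSMUSG00000025138) spans 120618372 to 120625240 on the minus strand of chromosome 11.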

How the data were processed

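The authors deposited whole-number counts per Ensembl gene, which were used as they are. Per the labels' protocols, polyadenylated RNA was made into strand-marked (dUTP) libraries. Per the submitters' processing notes, bcl2fastq (2.17.1.14) and build mm10 were used. No aligner, counter or strand setting is stated there. Of 30681 genes 30566 matched a symbol. Coordinates and exon lengths are GENCODE M21 (mm10).

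Genes passing filterByExpr (16587) were scaled by TMM. CPM uses the scaled totals, and log2 CPM a prior count of 2. edgeR 4.0.16 (quasi-likelihood, robust, 2-sided, Benjamini-Hochberg, threshold 0.05) was the main test and DESeq2 1.42.0 the alternative, in R 4.3.3. An SE is the log2 ratio divided by the root of its F, with 95% intervals. Correlations used 100000 permutations, within genotype for centred values, and all orders for 6 libraries. Same-numbered libraries did not deviate together in every pair. The tests were tried on simulated counts. No 2 replicates agreed within sampling noise (smallest chi-square per degree of freedom 5.70).

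Members, lists and tests were chosen with earlier results of these data known. Named genes were all 7 sirtuins, per list up to 4 genes with an unadjusted p under 0.05 or else the one of smallest p, the 3 most alike genes per sirtuin and the nearest coding neighbours. The nuclear RNA score and the fits with it or without replicates 3 and 4 labelled cKO were added after the data were seen. One marker gene that this rule names is not reported here.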

Additional observations from a re-analysis of the deposited data

Results flagged for a closer look

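Sirt6 in replicate 4 labelled cKO stood apart from the rest of its group, at 15.94 CPM against 13.45 CPM in the next highest library labelled cKO. Its gap took up 0.674 of the range of the 6 libraries. It was the only one flagged among 30 groups of values (7 sirtuins and 8 cell type scores in each genotype), where chance alone flags about 1 in 20. The same library was also highest for Sirt2 and for the oligodendrocyte score, and lowest for Sirt1.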

How the results depend on the processing

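Over 21 other settings the log2 fold change of Sirt4 ran from -0.43 to -0.27 and that of Sirt7 from -0.25 to -0.14, and those of Sirt1, Sirt5 and Sirt6 also kept their sign. Sirt2 changed sign in 6 settings and Sirt3 in 5. No sirtuin had an adjusted p under 0.05 in any setting. The 0 genes called between genotypes became 1 without scaling, 3 with every gene of at least 1 count and 58 by DESeq2, and ran from 0 to 14 with 1 library left out (14 without WT replicate 5, 2 without WT replicate 2 and 1 without WT replicate 1). It stayed at 0 with the replicate block, where same-numbered libraries correlated from -0.32 to 0.21 and share only a number. The 5 genes called between sexes became 15 in the WT libraries only and 9 by DESeq2, and ran from 5 to 10 with 1 WT library left out. Female-over-male differences changed sign without scaling for Sirt2 (0.00044), and with 1 WT library left out for Sirt1 (-0.083 to 0.171; without WT replicate 3), Sirt2 (-0.0681 to 0.00883; without 3), Sirt6 (-0.132 to 0.272; without 2) and Sirt7 (-0.208 to 0.0641; without 5). The 0 relations of sirtuins with cell type scores that passed stayed 0 in each alternative. The cause of these changes was not tested. Sirt4 (187 to 385 reads) and Sirt5 (247 to 378) rest on the fewest reads of the 7, which limits their precision.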
